A study of Mus musculus with 5 samples.

Results

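The cell cycle and mitosis genes of mouse liver tumours were examined as a group of 37 genes out of 22287 in the deposited expression table. They were chosen by symbol alone, with no expression filter, and each symbol matched 1 row. The tumours came from C57BL/6 mice given DEN (diethylnitrosamine, a liver carcinogen) and CCl4 (carbon tetrachloride, a liver toxicant) for 5 months. There were 2 wild-type (WT) libraries and 3 libraries of mice lacking lnc-CTHCC, a long non-coding RNA (lnc-CTHCC-/-, here KO), and both groups carried the same strain and treatment. The sources used here give neither the age of the mice nor the way the knockout was made. Whether 2 libraries of a genotype stem from different mice is not in the labels, so the spread between replicates may be technical and p-values measure only that spread. The knockout was taken as labelled, since the level of lnc-CTHCC itself was not analysed here. The comparison of KO with WT asks how the cell cycle programme of these tumours differs when the RNA is absent.

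Progress through the cell cycle is driven by cyclin-dependent kinases, which are switched on by cyclins made at different stages. Cyclin D and cyclin E act before DNA is copied, and cyclin A and cyclin B with Cdk1 take the cell through replication and into mitosis. Most genes of mitosis are transcribed late in the cycle, through promoter elements bound by the DREAM and MuvB complexes, B-MYB and FOXM1, and their products are then destroyed by the anaphase-promoting complex (APC/C). Hepatocytes of the adult liver rarely divide, but re-enter the cycle after injury and in tumours, so transcripts of this group mark the cycling cells of a tissue. In bulk tissue, fewer cycling cells and less of these transcripts per cell cannot be told apart.

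Values are FPKM, a fragment count scaled by gene length and library size, so they can be compared between genes. All 37 genes were detected, most at low levels. The median of their means over the 5 libraries was 0.866 FPKM, 15 genes had a mean of at least 1 FPKM and 22 lay below it. Ccnd1, the gene of cyclin D1, was the most abundant at a mean of 29.97 FPKM and made up 39.3% of the summed FPKM of the group. Without Ccnd1, the other 36 genes summed to 49.4 and 62.2 FPKM in WT 1 and WT 2 against 41.6, 38.9 and 39.8 FPKM in KO 1, KO 2 and KO 3. Both WT sums lay above all 3 KO sums, and the KO sums lay close together.

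The mean on the log2(FPKM + 1) scale was lower in KO for 34 of the 37 genes, where it was lower for 41.5% of the 16286 genes of the table that were not at 0 in every library. The median difference, KO minus WT, was -0.20 on that scale for the group and 0.02 for those 16286 genes. The addition of 1 FPKM shrinks the differences of low genes, and with 0.1 in its place the median of the group was -0.45. In 16 of the 37 genes every KO library lay below every WT library, which was seen in 6.18% of the 16286 genes, and in none of the 37 did every KO library lie above every WT library, against 8.55% of genes. Over the 15 members with a mean of at least 1 FPKM these counts were 13 lower (38.6% of genes at that level) and 9 without overlap (5.29%). These are counts without a test, because the genes were chosen with earlier results of these data known.

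None of the genes passed the test for a single gene. The fit was limma on log2(FPKM + 1) over the 10132 genes with a mean of at least 1 FPKM, where 0.00987% of genes passed at a Benjamini-Hochberg adjusted p under 0.05, a single gene, Onecut1, which is not in the group. The 15 members that entered it each had a limma adjusted p of 0.999. By unadjusted limma p under 0.05, 4 of these 15 were lower in KO, where 1.45% of genes tested were, and none was higher, where 1.78% were. Fitted with no expression filter, 10 of the 37 were lower at that level, against 2.33% of genes, and none was higher, against 1.82%. No gene of the table passed that fit (0%), and the smallest limma adjusted p of the group was 0.97. Of the 37 genes, 10 have a p-value under 0.05 with a lower KO mean in the authors' deposited table, against 2.19% of the 16286 genes, and none has one with a higher KO mean, against 1.61%. A false discovery rate under 0.05 is listed for 0.221% of genes in the authors' deposited table and for none of the 37. The smallest rate of the group in the authors' deposited table is 0.249, for Kif20a.

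**Figure D1:**
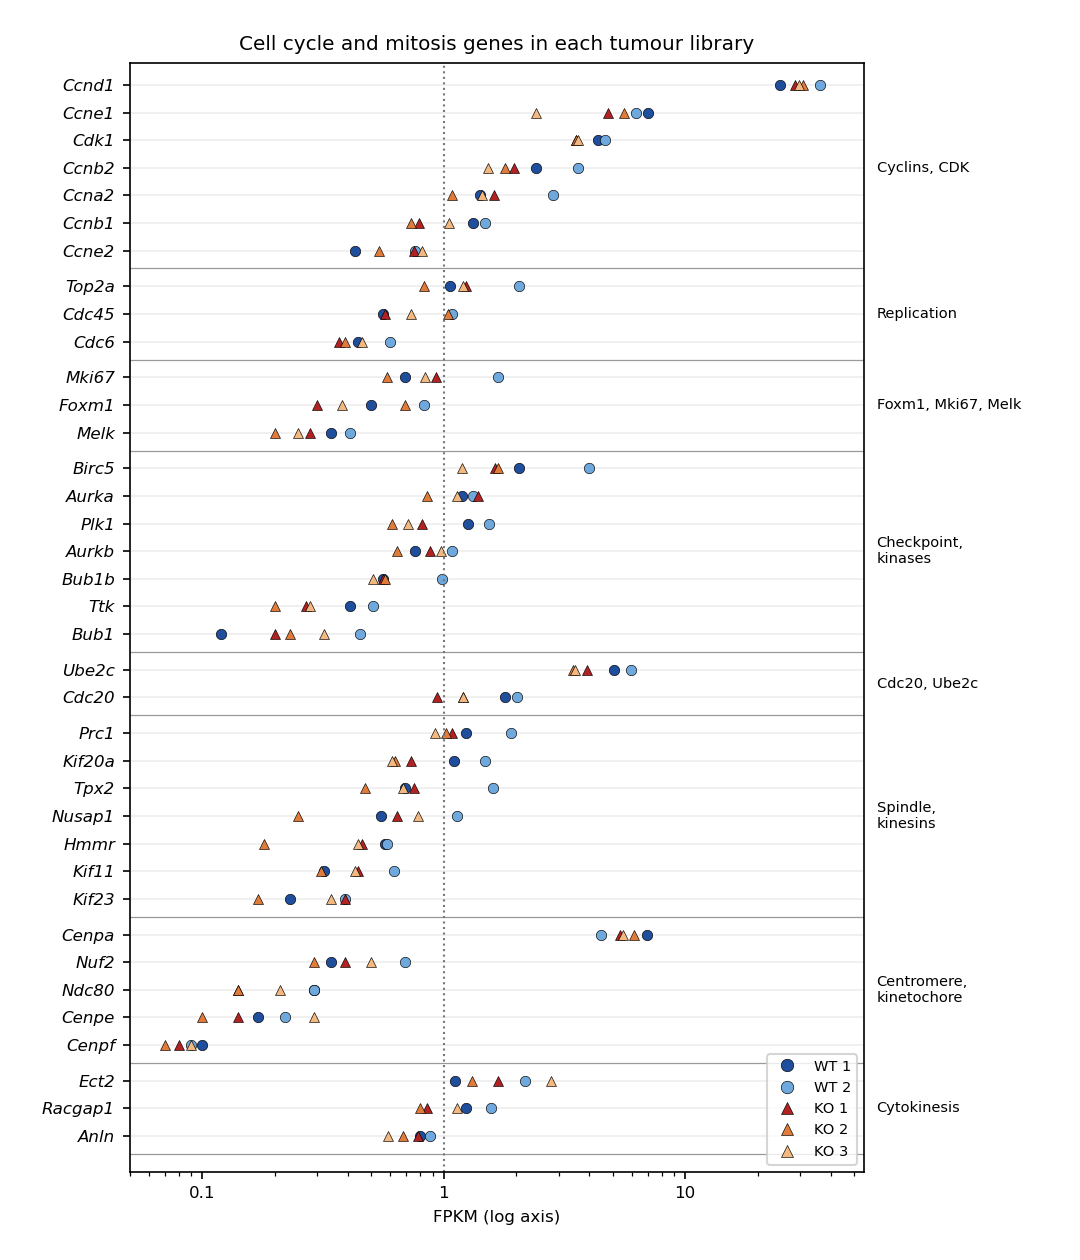
FPKM of each of the 37 genes (rows, ordered by role and then by mean) in the 2 WT libraries (circles) and the 3 KO libraries (triangles) on a log axis, with a dotted line at 1 FPKM. In 16 rows both circles lie to the right of all 3 triangles, and WT 2 is the rightmost symbol in 28 rows.

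Promoters are shown here for the members the values below turn on. RefSeq windows (GRCm38.p6, the assembly of mm10) from 250 bases before to 50 bases after an annotated start site were found for 30 of the 37 genes. The cell cycle genes homology region (CHR, the element bound by MuvB) was searched as TTTGAA or TTCGAA, the CCAAT box (bound by NF-Y) as CCAAT, and an E2F-like element as TTTGGCG, as the form TTTCGCG and as the form TTTCCCG, each on both strands. The 4 most abundant members with a window in which every KO library lay below every WT library are printed, with Cenpa, the most abundant other member with a window, beside them. Matches are in capitals, and a match on the opposite strand appears as its reverse complement. The windows are chr7:38107441-38107740 (minus strand) for Ccne1, chr2:164769679-164769978 (plus strand) for Ube2c, chr10:69352863-69353162 (minus strand) for Cdk1, chr9:70421505-70421804 (minus strand) for Ccnb2 and chr5:30666636-30666935 (plus strand) for Cenpa.
Ccne1: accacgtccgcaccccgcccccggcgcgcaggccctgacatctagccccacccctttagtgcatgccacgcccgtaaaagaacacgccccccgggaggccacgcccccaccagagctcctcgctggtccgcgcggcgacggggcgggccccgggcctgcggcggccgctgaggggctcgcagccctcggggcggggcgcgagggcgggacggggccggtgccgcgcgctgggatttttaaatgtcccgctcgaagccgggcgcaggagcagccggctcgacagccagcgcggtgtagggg
Ube2c: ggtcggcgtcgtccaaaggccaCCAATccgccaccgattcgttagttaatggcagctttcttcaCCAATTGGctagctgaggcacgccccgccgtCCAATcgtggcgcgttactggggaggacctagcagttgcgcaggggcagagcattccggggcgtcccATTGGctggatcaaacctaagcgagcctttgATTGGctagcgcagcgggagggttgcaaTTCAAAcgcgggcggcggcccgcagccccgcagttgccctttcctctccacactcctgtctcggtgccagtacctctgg
Cdk1: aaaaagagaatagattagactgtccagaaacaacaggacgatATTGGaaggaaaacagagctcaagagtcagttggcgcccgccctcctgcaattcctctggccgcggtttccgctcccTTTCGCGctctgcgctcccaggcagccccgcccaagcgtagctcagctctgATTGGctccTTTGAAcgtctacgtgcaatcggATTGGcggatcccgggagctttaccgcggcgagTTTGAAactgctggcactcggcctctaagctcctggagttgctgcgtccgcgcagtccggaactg
Ccnb2: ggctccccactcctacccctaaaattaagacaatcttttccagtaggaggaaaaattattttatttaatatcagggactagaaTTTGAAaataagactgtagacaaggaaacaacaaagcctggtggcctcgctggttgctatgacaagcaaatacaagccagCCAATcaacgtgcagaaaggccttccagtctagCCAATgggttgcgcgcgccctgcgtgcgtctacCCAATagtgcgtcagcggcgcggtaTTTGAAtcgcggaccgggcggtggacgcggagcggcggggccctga
Cenpa: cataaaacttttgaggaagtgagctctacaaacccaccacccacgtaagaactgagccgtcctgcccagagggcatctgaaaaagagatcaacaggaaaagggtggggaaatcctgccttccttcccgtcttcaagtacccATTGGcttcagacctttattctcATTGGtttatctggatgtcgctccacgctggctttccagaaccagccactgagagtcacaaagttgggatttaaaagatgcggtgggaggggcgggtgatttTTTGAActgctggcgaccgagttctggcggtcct

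The Ube2c window held 1 CHR match and 6 CCAAT matches, of which a neighbouring pair on opposite strands shares bases. The Cdk1 window held 2 CHR matches, 3 CCAAT matches and 1 E2F-like match, and that of Ccnb2 held 2 CHR and 3 CCAAT matches. Cenpa held 1 CHR and 2 CCAAT matches, and the window of Ccne1, which is transcribed earlier in the cycle, held none of the letters searched.

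Across the group, 22 of the 30 genes with a window (73.3%) had a CHR match, against 19.2% of the 32851 promoter windows of the table. CCAAT was found in 22 of 30 genes (73.3%) and 37.4% of all windows, both motifs together in 20 of 30 genes (66.7%) and 7.52% of all windows, and an E2F-like match in 5 of 30 genes (16.7%) and 5.58% of all windows. Ect2 and Prc1 had 2 overlapping windows each, and a match in either was counted. The CHR matches lay near the start site: 21 of 30 genes (70%) had one that began no more than 50 bases before the start or after it, against 5.31% of all windows. A CHR match was found in 11 of the 15 genes whose KO libraries all lay below WT and in 11 of the other 15, and CCAAT in 10 and 12 of them. A match is a description of the letters and not a bound site.

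**Figure D2:**
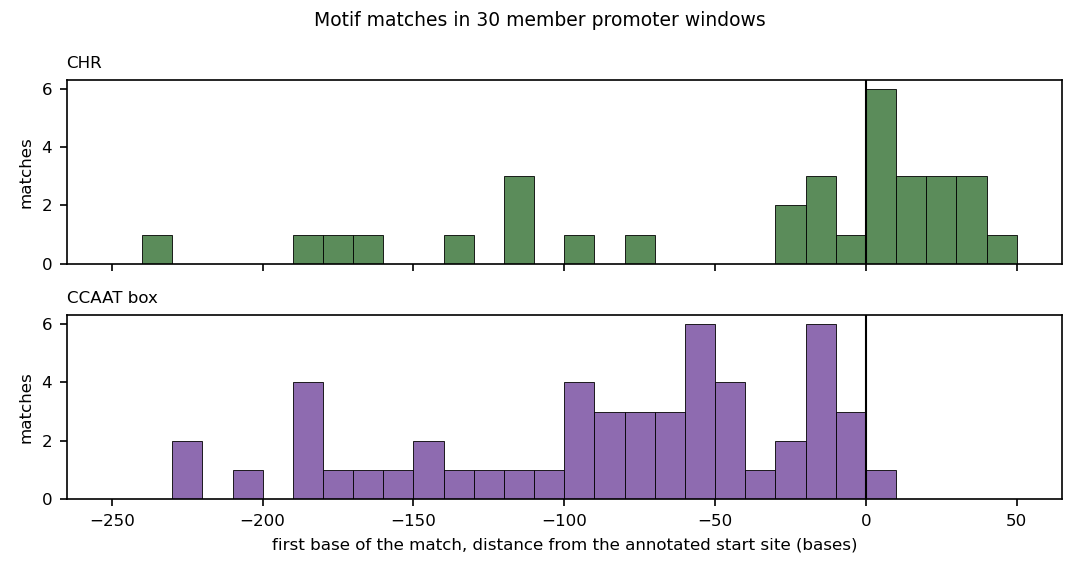
Number of CHR matches (top) and CCAAT matches (bottom) by the distance in bases of their first base from the annotated start site (0, vertical line), in 1 promoter window for each of 30 genes. CHR matches gather around the start site (22 of 32 from 50 bases before it onwards), and CCAAT matches lie mostly before it, with a median of -69.5 bases.

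Among the cyclins, E1, B1 and B2 were lower in every KO library, and D1, E2 and A2 overlapped between the genotypes. Ccnd1, cyclin D1, which starts the exit from quiescence, was at 24.62 and 36.04 FPKM in WT against 28.6, 30.9 and 29.7 FPKM in KO. All KO values lay between those of WT, and the log2 difference of 0.00 (-0.0045, SE 0.196) turned to 0.02 after rescaling to a common sum. Ccne1, cyclin E1, which with Cdk2 starts replication, was at 6.98 and 6.24 FPKM in WT against 4.81, 5.59 and 2.42 FPKM in KO. It was lower in every KO library, with KO 3 far below the other KO libraries, and had a log2 difference of -0.58 (SE 0.282). Its close relative Ccne2, cyclin E2, was at 0.43 and 0.76 FPKM in WT against 0.75, 0.54 and 0.81 FPKM in KO, so the genotypes overlapped and the difference was 0.10.

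Ccnb2, cyclin B2, which activates Cdk1 for mitosis, was at 2.40 and 3.61 FPKM in WT against 1.95, 1.79 and 1.52 FPKM in KO. The WT mean was 3.01 ± 0.856 FPKM (SD, n = 2) and the KO mean 1.75 ± 0.217 FPKM (SD, n = 3), a log2 difference of -0.53 (SE 0.204), with all KO libraries below WT. Ccnb1, cyclin B1, was at 1.32 and 1.48 FPKM in WT against 0.79, 0.73 and 1.05 FPKM in KO, again without overlap (log2 difference -0.37, SE 0.177). Cdk1, the mitotic kinase itself, was at 4.36 and 4.67 FPKM in WT against 3.53, 3.52 and 3.59 FPKM in KO. The KO values of Cdk1 were almost alike and lay below both WT values, with a log2 difference of -0.28 (SE 0.176). Ccna2, cyclin A2, was at 1.41 and 2.84 FPKM in WT against 1.61, 1.08 and 1.44 FPKM in KO, so its lower KO mean rested on WT 2. GENCODE vM21 lists processed pseudogenes named after Ccnb1 and Ccnb2, which makes the values of these cyclins less certain where the counting could have split reads with such copies.

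Ube2c and Cdc20, which work with the APC/C to destroy cyclin B and securin, were lower in every KO library. Ube2c, the ubiquitin-conjugating enzyme of the complex (ENSMUSG00000001403, chromosome 2, 164769898 to 164778822, plus strand, GRCm38), measured 5.06 and 5.98 FPKM in WT against 3.92, 3.42 and 3.51 FPKM in KO. The means were 5.52 ± 0.651 FPKM (SD, n = 2) and 3.62 ± 0.267 FPKM (SD, n = 3), a ratio of 0.655 and a log2 difference of -0.50 (SE 0.184). Cdc20, its coactivator in mitosis (ENSMUSG00000006398, chromosome 4, 118432901 to 118437352, minus strand), was at 1.80 and 2.01 FPKM in WT against 0.94, 1.20 and 1.20 FPKM in KO. Its log2 difference was -0.46 (SE 0.176), and the gap between the genotypes was wider than the spread within either. Exons of both overlap exons of a gene on the opposite strand. Tnnc2, which overlaps Ube2c, was listed at 0 in all 5 libraries, and Elovl1, which overlaps Cdc20, was at 34.4 and 40.3 FPKM in WT against 32.3, 42.1 and 31.5 FPKM in KO. The sources used here do not give the strand setting, so reads of Cdc20 and Elovl1 cannot be told apart where they overlap. In all, 12 of the 37 genes share exon bases with another gene, 10 of them with a gene on the opposite strand.

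Birc5 and Plk1 led the checkpoint proteins and mitotic kinases. Birc5, survivin, which belongs to the chromosomal passenger complex (ENSMUSG00000017716, chromosome 11, 117849251 to 117855743, plus strand), measured 2.05 and 3.98 FPKM in WT against 1.63, 1.67 and 1.19 FPKM in KO. It had the most negative log2 difference of the 37, -0.65 (SE 0.241), and a ratio of 0.496, but its WT values differed by more than the lower of them did from KO. Plk1, the polo-like kinase of mitotic entry and spindle assembly, was at 1.26 and 1.54 FPKM in WT against 0.81, 0.61 and 0.71 FPKM in KO, with a log2 difference of -0.49 and a ratio of 0.507. Its mean of 0.986 FPKM kept it just below the filter, and it was the member with the limma adjusted p of 0.97 in the fit without a filter. Ttk, the kinase that starts the spindle checkpoint, was at 0.41 and 0.51 FPKM in WT against 0.27, 0.20 and 0.28 FPKM in KO, without overlap.

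The other members of this set overlapped. Aurka, the centrosome kinase aurora A, was at 1.19 and 1.32 FPKM in WT against 1.38, 0.85 and 1.14 FPKM in KO (log2 difference -0.09, SE 0.186). Aurkb, aurora B, the kinase that Birc5 helps to place, was at 0.76 and 1.08 FPKM in WT against 0.88, 0.64 and 0.97 FPKM in KO. The checkpoint kinase Bub1 was at 0.12 and 0.45 FPKM in WT against 0.20, 0.23 and 0.32 FPKM in KO, all between the WT values. Bub1b, BubR1, was at 0.56 and 0.98 FPKM in WT against 0.56, 0.57 and 0.51 FPKM in KO, so WT 1 lay within the KO range.

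Of 7 spindle and kinesin genes, all had a lower KO mean (41.5% of the 16286 genes did) and 3 did not overlap (6.18% of the 16286 genes had every KO library below WT). Prc1, which bundles microtubules of the central spindle, was at 1.24 and 1.90 FPKM in WT against 1.08, 1.02 and 0.92 FPKM in KO (log2 difference -0.35, SE 0.188). Kif20a, a kinesin of the central spindle, was at 1.10 and 1.48 FPKM in WT against 0.73, 0.63 and 0.61 FPKM in KO, a ratio of 0.509. Hmmr, a spindle protein and hyaluronan receptor, was at 0.57 and 0.58 FPKM in WT against 0.46, 0.18 and 0.44 FPKM in KO. These 3 genes share that WT 1 also lay above KO. Tpx2, the activator of aurora A, was at 0.69 and 1.6 FPKM in WT against 0.75, 0.47 and 0.68 FPKM in KO, and Nusap1, which binds spindle microtubules, at 0.55 and 1.13 FPKM in WT against 0.64, 0.25 and 0.78 FPKM in KO. In both, WT 2 alone was above KO. Kif11, the motor that separates spindle poles, and Kif23, a motor of cytokinesis, had differences of -0.07 and -0.01.

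The 5 centromere and kinetochore genes had a summed FPKM in KO that was 0.953 of that in WT, the ratio nearest to 1 of the 8 sets into which the group was divided by role. Most of that sum was Cenpa, at 5.71 of 6.81 FPKM in the WT mean and 5.67 of 6.48 FPKM in the KO mean. The ratio therefore says little about the others, and 4 of the 5 genes had a lower mean in KO. Cenpa, the histone variant that marks centromeres, was at 6.96 and 4.46 FPKM in WT against 5.37, 6.14 and 5.50 FPKM in KO. It is the member in which WT 2 was lowest and WT 1 highest, and its log2 difference of 0.02 (SE 0.214) turned to -0.04 after median-ratio rescaling and to -0.05 after quantile normalization. Ndc80, the microtubule-binding subunit of the outer kinetochore, was at 0.29 FPKM in both WT libraries against 0.14, 0.14 and 0.21 FPKM in KO, without overlap. Its partner Nuf2 was at 0.34 and 0.69 FPKM in WT against 0.39, 0.29 and 0.50 FPKM in KO. Cenpe, a kinetochore motor, and Cenpf, a large kinetochore protein, stayed at or below 0.29 FPKM in every library.

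Of the 3 cytokinesis genes, Racgap1, a subunit of centralspindlin, was at 1.24 and 1.57 FPKM in WT against 0.85, 0.80 and 1.13 FPKM in KO (log2 difference -0.32, SE 0.181). Anln, anillin, the scaffold of the contractile ring, was at 0.80 and 0.88 FPKM in WT against 0.78, 0.68 and 0.59 FPKM in KO, and in both genes the KO libraries lay below WT. Ect2, the exchange factor that activates RhoA at the cleavage site, went the other way: it was at 1.11 and 2.17 FPKM in WT against 1.67, 1.31 and 2.78 FPKM in KO. Its log2 difference of 0.14 (SE 0.267), the highest of the 37, was -0.06 without KO 3 and -0.15 without WT 1.

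In each of the 3 replication genes and the 3 regulators and markers of cycling cells, WT 2 was the highest library. Top2a, the topoisomerase that untangles sister DNA, was at 1.06 and 2.04 FPKM in WT against 1.24, 0.83 and 1.20 FPKM in KO, and its log2 difference of -0.27 (SE 0.219) was 0.02 without WT 2. Mki67, whose protein Ki-67 marks cycling cells, was at 0.69 and 1.68 FPKM in WT against 0.93, 0.58 and 0.84 FPKM in KO. The KO mean of Mki67 differed from WT 2 by -0.59 and from WT 1 by 0.07 on the log2 scale. Cdc6, which loads the replicative helicase, was at 0.44 and 0.60 FPKM in WT against 0.37, 0.39 and 0.46 FPKM in KO, and Cdc45, a subunit of the active helicase, at 0.56 and 1.08 FPKM in WT against 0.57, 1.04 and 0.73 FPKM in KO. Both overlapped. Foxm1, the transcription factor of late cell cycle genes, was at 0.50 and 0.83 FPKM in WT against 0.30, 0.69 and 0.38 FPKM in KO, with KO 2 between the WT libraries. Melk, a kinase of cycling cells, was at 0.34 and 0.41 FPKM in WT against 0.28, 0.20 and 0.25 FPKM in KO, without overlap.

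The WT libraries did not contribute equally. WT 2 was the highest library in 28 of the 37 genes, where it was the highest in 31% of the 16286 genes, and KO 2 was the lowest in 20 of the 37, against 13.5% of genes. Set against WT 2 alone, the KO mean was lower for 36 of 37 genes (97.3%), with a median log2 difference of -0.28, where it was lower for 56.3% of the 16286 genes and their median was -0.02. Set against WT 1 alone it was lower for 25 of 37 genes (67.6%), with a median of -0.05, where the KO mean was lower for 29.3% of the 16286 genes and their median was 0.07. The typical gene had a lower value in WT 1 than in the other libraries, with a median-ratio factor of 0.886 against 0.977 to 1.08 in the others. The summed FPKM of WT 1 was nevertheless the largest, at 552619 against 526229 to 537958 in the others. All KO libraries lay below WT 1 in 18 of the 37 genes and below WT 2 in 30, against 14.5% and 33.5% of the 16286 genes. The genes that kept a difference of -0.3 or beyond to WT 1 as well were Ccne1, Cdc20, Plk1, Ube2c, Kif20a, Ccnb1 and Ccnb2, which were picked out after their values were seen.

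**Figure D3:**
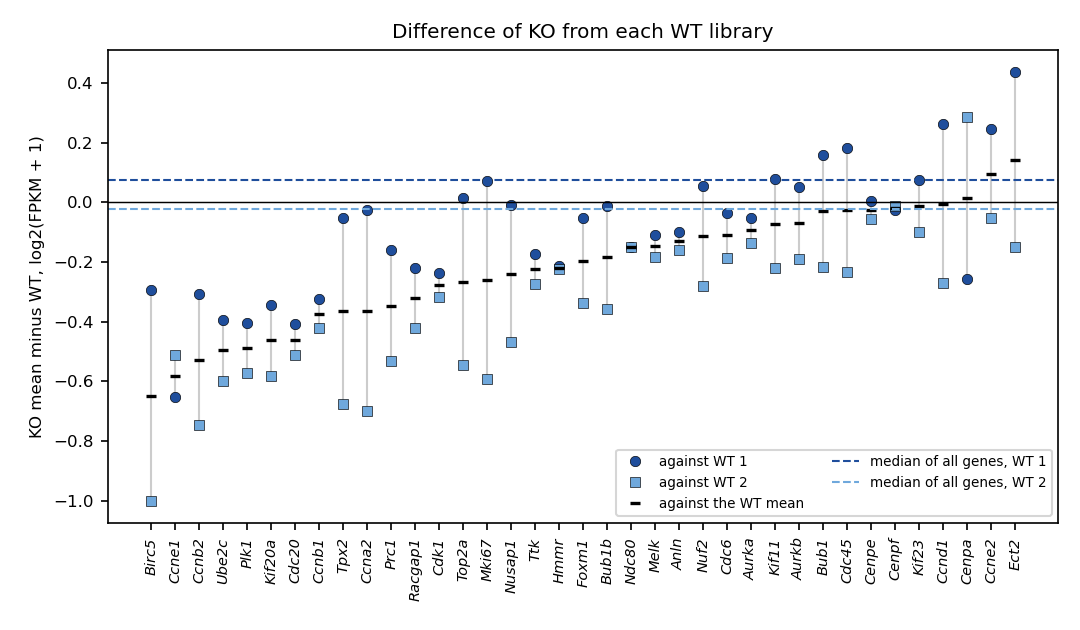
Mean of the 3 KO libraries minus WT 1 (dark circles), minus WT 2 (light squares) and minus the WT mean (black bars) on the log2(FPKM + 1) scale for each of the 37 genes, ordered by the last. Dashed lines give the medians of the 16286 genes for each WT library (0.07 and -0.02), and squares lie below circles in most genes, the exceptions being Ccne1, Cenpa and Cenpf, and Ndc80, where they coincide.

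Other genes of the cell cycle were taken from 5 lists of 133 genes that share no member with the group, and none of them passed the test. A second list of mitotic genes held 53 kinases, kinesins, condensins and kinetochore proteins. Of these, 29 had a lower and 24 a higher mean in KO, with a median log2 difference of -0.01. The share that was lower, 54.7%, compares with 41.5% of the 16286 genes. In 14 of the 53 (26.4%) every KO library lay below every WT library and in 2, Spc25 and Trip13, every KO library lay above, where the share of the 16286 genes was 6.18% and 8.55%. Hmgb2, a chromatin protein abundant in dividing cells, was at 5.29 and 5.65 FPKM in WT against 2.71, 2.26 and 2.70 FPKM in KO, with a log2 difference of -0.87 ± 0.182 (SE) and a limma adjusted p of 0.769. Cenpm, a kinetochore subunit, was at 2.13 and 1.68 FPKM in WT against 0.71, 0.79 and 0.65 FPKM in KO, a ratio of 0.376, a log2 difference of -0.76 ± 0.175 (SE) and a limma adjusted p of 0.822. Tacc3, which stabilises spindle microtubules, was at 2.11 and 1.64 FPKM in WT against 0.95, 0.99 and 0.97 FPKM in KO. In these 3 genes the KO libraries lay close together and below both WT libraries, and in Cenpm and Tacc3 WT 1 was the higher of the WT libraries. Cdca3, a trigger of mitotic entry, showed the opposite order of the WT libraries, with 2.44 and 4.15 FPKM in WT against 1.84, 1.43 and 1.43 FPKM in KO and a log2 difference of -0.72. It was added after its values were seen.

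DNA replication genes were lower in 17 (54.8%) and higher in 14 of 31, with a median log2 difference of -0.02, where 41.5% of the 16286 genes were lower. In 2 of the 31, Mcm10 and Mcm6, every KO library lay below WT, and in 1, Gins3, every KO library lay above. The share below, 6.45%, was near the 6.18% of the 16286 genes, and the 1 gene above compares with 8.55% of them. Mcm10, which helps to start the replication fork, was at 1.82 and 3.55 FPKM in WT against 0.76, 1.08 and 1.59 FPKM in KO. Mcm6, a subunit of the replicative helicase, was at 4.58 and 6.14 FPKM in WT against 4.43, 4.42 and 4.43 FPKM in KO, so WT 1 was close to KO. Tyms, thymidylate synthase, was at 6.41 and 3.88 FPKM in WT against 4.29, 3.81 and 3.69 FPKM in KO, with WT 1 apart from the other libraries. The G1 cyclins, kinases, E2F and RB genes were lower in 7 and higher in 10 of 17 (median 0.05), and no gene of that list separated the genotypes in either direction. The 41.2% that were lower were near the 41.5% of the 16286 genes. The genes of the G1 list with the smallest p in the fit without a filter were Ccnd3, cyclin D3, with a log2 difference of 0.48 (SE 0.319), Rbl1, the RB relative p107, with -0.22 and the repressor E2f4 with 0.18.

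Inhibitors of the cell cycle were higher in 9 and lower in 6 of 15, with a median log2 difference of 0.14. The share that was lower, 40%, was close to the 41.5% of the 16286 genes. Cdkn2a, which encodes the inhibitors p16 and p19ARF, was at 3.11 and 3.52 FPKM in WT against 7.32, 5.86 and 4.83 FPKM in KO. All KO libraries lay above WT, with a ratio of 1.81 and a log2 difference of 0.69 (SE 0.21), but its limma adjusted p was 0.999. Tob1, an anti-proliferative protein, was at 31.7 and 37.2 FPKM in WT against 46.6, 42.2 and 41.6 FPKM in KO, also without overlap. These were the 2 of 15 with every KO library above WT, as in 8.55% of the 16286 genes. In 1 of 15 (6.67%, against 6.18% of genes) every KO library lay below WT. It was Gadd45b, named after its values were seen, at 1.89 and 1.47 FPKM in WT against 1.37, 1.23 and 1.39 FPKM in KO. Cdkn1b, the inhibitor p27, was at 3.56 and 4.42 FPKM in WT against 6.25, 4.94 and 4.28 FPKM in KO, with overlap. Btg2, another anti-proliferative gene, which was added after its values were seen, was widely scattered at 47.6 and 36.2 FPKM in WT against 33.8, 93.3 and 76.4 FPKM in KO. The summed FPKM of the 15 genes was 167.7 and 194.5 in WT against 210.2, 236.6 and 208.7 in KO. Every KO sum lay above WT, but Btg2 was the most abundant gene of the list and weighs heavily in these sums. Subunits and regulators of the APC/C, whose substrates include the cyclins above, were lower in 8 (47.1%, against 41.5% of the 16286 genes) and higher in 9 of 17 (median 0.01). Among them, Anapc15 was at 7.54 and 3.19 FPKM in WT against 2.85, 2.63 and 2.38 FPKM in KO, with WT 1 far above the rest, and Anapc13 and Anapc16 had log2 differences of -0.18 and 0.27.

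**Figure D4:**
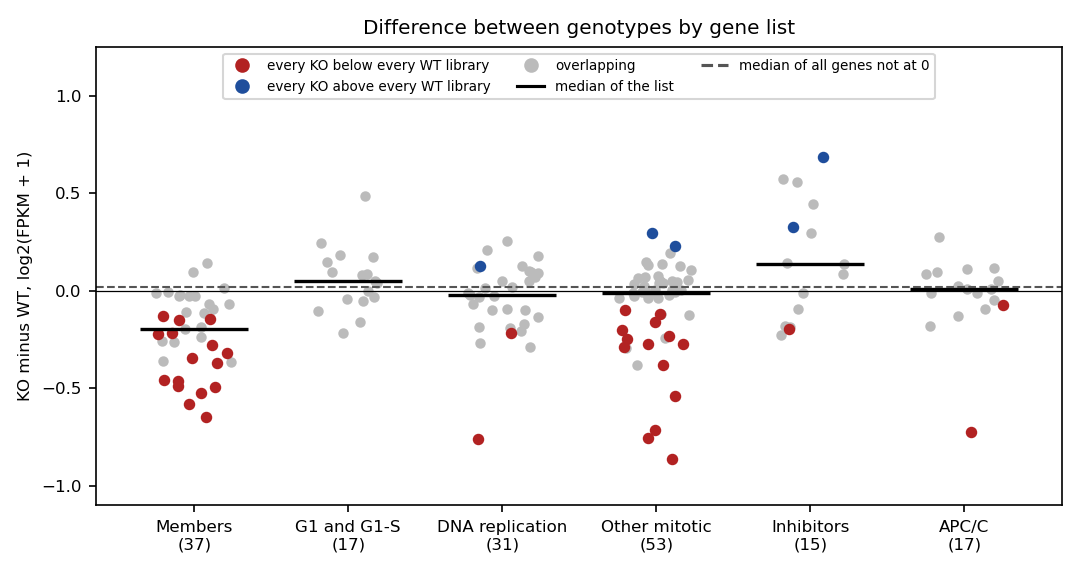
Log2 difference, KO minus WT, of each gene in the group of 37 and in 5 further cell cycle lists, with the number of genes in brackets, a black bar at the median of the list and a dashed line at the median of 16286 genes (0.02). Red points have every KO library below every WT library (16 of 37 and 14 of 53 in the mitotic lists) and blue points every KO library above.

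Markers of other cells were read beside these values. Hepatocyte markers were all above the filter, with Alb, serum albumin, and Trf, transferrin, the most abundant, and summed to 140400 to 192600 FPKM in WT against 161900 to 165700 FPKM in KO. Of these 14 markers, 8 (57.1%) had a lower mean in KO, where 41.5% of the 16286 genes did. Of 12 B and plasma cell markers, 9 (75%) were lower in KO, again against 41.5% of genes. In 5 of the 12 every KO library lay below WT and in 1 every KO library lay above, against 6.18% and 8.55% of the 16286 genes. Their sums of 267.7 and 605.7 FPKM in WT lay above those of 201.2, 220.9 and 134.2 FPKM in KO, with WT 2 highest as for the group of 37. Igha, the IgA heavy chain, and Sdc1, which hepatocytes also express, were the most abundant, and Pax5 had a mean under 0.1 FPKM. All 14 T and NK cell markers were lower in KO, where 41.5% of the 16286 genes were. Their sums were 9.50 and 5.64 FPKM in WT against 5.55, 2.30 and 2.70 FPKM in KO. In 6 of the 14 (42.9%) every KO library lay below WT, and in 0 above, against 6.18% and 8.55% of the 16286 genes. All 14 had a mean below 1 FPKM. Trac and Nkg7 were the most abundant, Ncr1 had a mean under 0.1 FPKM, and here WT 1 and not WT 2 was highest. Both lymphoid sums, like that of the members without Ccnd1, were higher in each WT library than in any KO library. For T and NK cells, however, WT 2 at 5.64 FPKM was close to KO 1 at 5.55 FPKM. WT 2 was the highest library in 2 of those 14 markers, against 28 of the 37 members. The part of lymphoid cells in the differences was not tested.

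Markers of the other cell types overlapped between the genotypes in their sums. Their counts of genes lower in KO stand beside 41.5% of the 16286 genes. Macrophage and Kupffer cell markers, led by C1qb and C1qc, were lower in KO in 2 of 12, with sums of 144.5 to 173.3 FPKM in WT against 116.9 to 232.9 FPKM in KO. Dendritic cell markers, led by Itgax and Cd209a and with Xcr1 under 0.1 FPKM, were lower in 5 of 8 (3.28 to 7.48 FPKM in WT against 2.81 to 4.85 FPKM in KO), and neutrophil markers, led by S100a9 and Ngp and with Ly6g under 0.1 FPKM, in 3 of 10 (6.93 to 7.87 FPKM and 5.50 to 10.5 FPKM). Endothelial markers, led by Eng and Clec4g, were lower in 2 of 10 (72.7 to 78.4 FPKM in WT against 76.1 to 115.5 FPKM in KO), and stellate cell and fibroblast markers, led by Dcn and Col3a1, in 3 of 11 (101.3 to 131.8 FPKM and 111.9 to 173.4 FPKM). Cholangiocyte markers, led by Spp1 and Sox9, were lower in 1 of 7 (150.3 to 424.6 FPKM in WT against 155.3 to 349 FPKM in KO). Erythroid markers, led by Hbb-bs and Hba-a2, were lower in 1 of 8 (362.8 to 734.3 FPKM in WT against 476.6 to 775 FPKM in KO). No marker of any list was at 0 in every library.

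**Figure D5:**
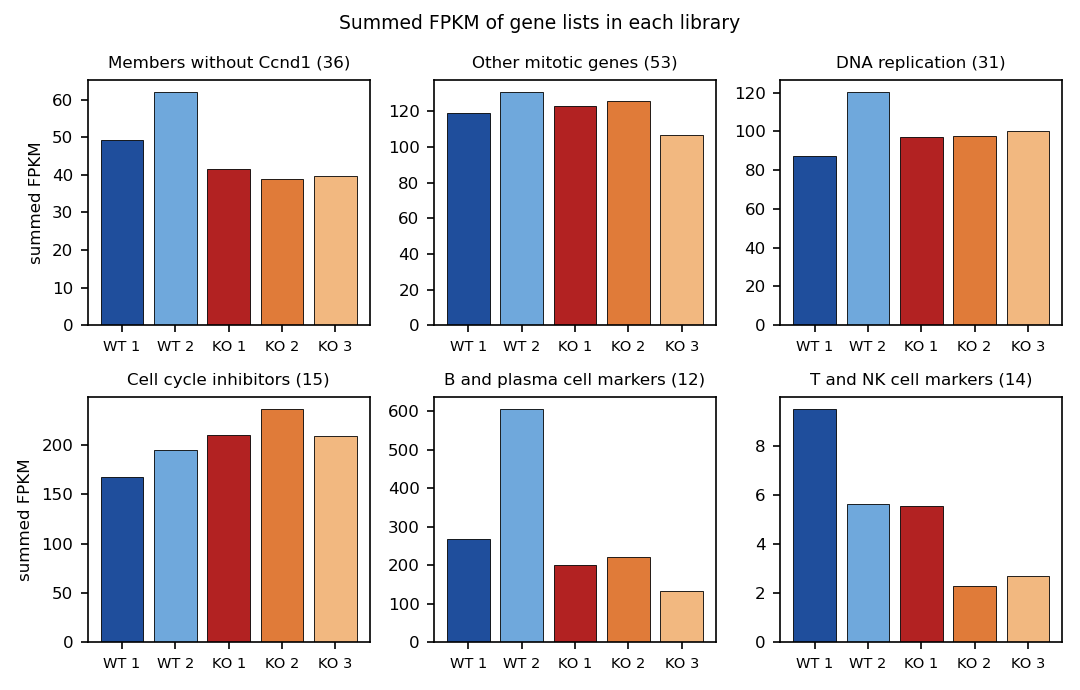
Summed FPKM of 6 gene lists (number of genes in brackets) in each of the 2 WT and 3 KO libraries. Both WT bars stand above all KO bars for the members without Ccnd1 (49.4 and 62.2 against 38.9 to 41.6 FPKM) and for the lymphoid markers. For the cell cycle inhibitors both WT bars stand below all KO bars. The sums of the other mitotic and replication genes overlap. Zwint, the most abundant of the other mitotic genes, was at 37.16 and 35.76 FPKM in WT against 41.38, 43.87 and 35.47 FPKM in KO. The overlap of that mitotic sum therefore says little about the rest of its list.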

How the data were processed

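RNA sequencing of 5 mouse liver tumour libraries was read from 1 deposited table of 22287 genes. Per the labels' protocols, RNA was isolated with Trizol and Illumina libraries were made from it. Named without a role in the submitters' processing notes are bcl2fastq 2.0, HISAT2, StringTie, DESeq2, limma and the build mm10. The authors deposited FPKM per library and a genotype mean, without library totals, so the depth is unknown. The authors' deposited log2 fold changes and their deposited p-values and false discovery rates come from a test not named in the sources used here.

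Groups were taken from the sample titles. The genotypes were compared with limma 3.58.1 (R 4.3.3) on log2(FPKM + 1) for genes with a mean of at least 1 FPKM (trend, 3 residual degrees of freedom), with Benjamini-Hochberg adjustment over 10132 genes. The fit was tested on data simulated for these 10132 genes. It called 76.4% of simulated log2 differences of 1 and 99.8% of those of 2. On average 7.86% of the genes called had no simulated difference. Differences as small as those of the members were not simulated, so how often the fit would call them is unknown. The members and lists were chosen with earlier results of these data known. All members are given; of each of the 5 pathway lists the 3 genes with the smallest unadjusted p of the fit without a filter, among those with a mean of at least 1 FPKM, are named, and of each of the 10 marker lists the most abundant pair; 1 marker gene is not reported here by name. A few further genes were named once their values were known. All 37 identifiers were found in GENCODE vM21 (GRCm38), and coordinates are 1-based. Alternatives were pseudocounts, filters, scalings, empirical Bayes options, a replicate block and each library left out in turn. The filter for the counts over members, and all settings for genes of the pathway lists, were added after seeing the data. Plots were made with matplotlib 3.10.9 (Python 3.11.15).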

Additional observations from a re-analysis of the deposited data

How the results depend on the processing

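No member passed an adjusted p of 0.05 by limma in any setting. The smallest adjusted p of a member was 0.186 without WT 1 and 0.477 without WT 2. By unadjusted p under 0.05, the 4 members lower in KO became 6 after median-ratio scaling, 8 after quantile normalization and 8 without WT 1, and 0 without WT 2, without KO 3 or with the replicate block. The single gene higher in KO became 0 with a pseudocount of 5, no filter, a mean of at least 5 FPKM, a common sum, median-ratio scaling or quantile normalization, 2 with robust empirical Bayes and 0 to 3 on leaving out 1 library. Genes lower in KO went from 0 to 1 with the robust option, and ranged from 0 to 14 without 1 library. Deviations of same-numbered WT and KO libraries from their group means had correlations of 0.088 and -0.241. With 2 WT libraries, the deviations of WT 1 and WT 2 are exact opposites, so these values are not separate checks and do not settle pairing. No label says that the numbers pair the libraries. With the replicate block, which leaves 1 residual degree of freedom, 19 genes were higher and 43 lower, and Ect2 was -0.0585. Members with a lower KO mean, 34 of 37, numbered 13 of 15 at a mean of at least 1 FPKM, 2 of 3 at 5 FPKM, and 25 (without WT 2) to 36 (without WT 1). Members with every KO library below WT, 16, numbered 9 at 1 FPKM, 1 at 5 FPKM, 20 after median-ratio scaling, 22 after quantile normalization and 17 to 30 without 1 library, 30 being without WT 1. Their median log2 difference, -0.20, was -0.45 with a pseudocount of 0.1, -0.056 with 5, -0.35 at 1 FPKM, -0.0045 at 5 FPKM, and -0.28 to -0.0522 without 1 library. The ratio of summed FPKM, 0.811, was 0.93 at 5 FPKM and 0.711 (without WT 1) to 0.944 (without WT 2). Ccnd1 turned to 0.0202 with a common sum, and Cenpa to -0.0413 after median-ratio scaling and -0.0478 after quantile normalization. Without 1 library the log2 difference ran from -0.27 to 0.26 for Ccnd1, -0.26 to 0.29 for Cenpa, -0.15 to 0.44 for Ect2, -0.55 to 0.015 for Top2a, -0.18 to 0.0018 for Aurka, -0.59 to 0.0127 for Tyms and -0.44 to 0.0729 for Anapc13. For the 30 named genes fitted, 304 other values kept their direction and side of the threshold, as did 138 on leaving out 1 library. Filters and empirical Bayes options do not change the log2 difference of a gene, so its direction could not turn there. No named gene was near the threshold in the main fit, where the smallest limma adjusted p among them was 0.769, for Hmgb2. These counts therefore say little about stability. A stricter filter leaves fewer genes to count; for the other changes the cause was not tested. Values are rounded to 0.01 FPKM and carry no read totals, so the counting error of the 22 members under 1 FPKM is unknown.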
